A study of Mus musculus with 18 samples.

Results

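The effector and cytotoxic T cell genes were 8 genes, Prf1, Nkg7, Gzmb, Ifng, Ccl5, Tbx21, Eomes and Stat4, and ATAC-seq measured how open their chromatin was in T and B cells of the mouse spleen. A region belonged to a gene when the nearest end of any protein-coding gene within 50 kb was an end of that gene. This rule gave 20 of 27396 regions, at 7 of the 8 genes, and 18 of them were among the 25712 regions with enough reads to test. Stat4 held 5 regions, Ifng 6, Prf1 3, Tbx21 and Gzmb 2 each, and Nkg7 and Eomes 1 each. Ccl5 was given no region. The rule that gave regions to genes used no measured values, but the genes were chosen with earlier results of these data known.

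The 18 libraries came from C57BL/6J mice of wild-type genotype. Spleen sections were frozen fresh and tagmented in place, a step in which a transposase cuts open DNA and adds sequencing adapters, and stained B or T cells were then cut out by laser capture microdissection. T patches (n = 5) and B patches (n = 5) were each pooled from 10 captured areas and held about 1000 nuclei. T 100 nuclei (n = 4) and B 100 nuclei (n = 4) were each made of 100 nuclei captured singly. The sources used here give neither the stained markers nor the age, sex or number of the mice. A patch can also hold other cells of its zone, and the labels do not divide the T cells into CD4, CD8 or other subsets. Replicate libraries were technical, and no label ties one to an animal, so the p-values measure the spread between libraries alone and understate the uncertainty across mice.

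Cytotoxic lymphocytes kill by releasing granules: perforin, the product of Prf1, forms pores through which granzymes such as granzyme B, the product of Gzmb, enter the target cell. NKG7 is a protein of the granule membrane. Interferon gamma, the product of Ifng, activates macrophages, and the chemokine CCL5 attracts leukocytes. STAT4 carries the interleukin-12 signal, and T-bet, the product of Tbx21, and Eomes are related T-box transcription factors that drive the effector programme. In a resting spleen, effector and memory T cells and natural killer cells express this programme, which naive T cells express at low levels.

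Of the 20 regions, those at Prf1 and Tbx21 that spanned a gene end, and the region beside Nkg7, overlapped a promoter window, taken as the 250 bases before a transcription start and the 50 after it. These windows are shown because regions described below lie over them. A downstream start window of Stat4 is shown with them because the strongest Stat4 region in B patches began 224 bases after its start site. The sequences are RefSeq's, on build GRCm38.p6, for the plus strand at chr10:61297586-61297885 (Prf1), chr7:43436888-43437187 (Nkg7) and chr1:52007990-52008289 (Stat4), and for the minus strand at chr11:97115282-97115581 (Tbx21). The Prf1 region covered 292 of the 300 bases of its window, the Nkg7 region 189 and the Tbx21 region 124. Capitals mark 4 short motifs, searched on both strands: GGTGTG of T-box factors, TGTGGT of RUNX factors, GGAAG of ETS factors and TTCNNNGAA of STAT factors.
Prf1: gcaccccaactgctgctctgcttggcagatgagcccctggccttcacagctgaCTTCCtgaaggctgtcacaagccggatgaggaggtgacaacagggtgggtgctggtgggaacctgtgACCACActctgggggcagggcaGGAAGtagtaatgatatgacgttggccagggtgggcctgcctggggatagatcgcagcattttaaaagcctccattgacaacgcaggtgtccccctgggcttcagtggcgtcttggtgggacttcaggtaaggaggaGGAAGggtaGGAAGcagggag
Nkg7: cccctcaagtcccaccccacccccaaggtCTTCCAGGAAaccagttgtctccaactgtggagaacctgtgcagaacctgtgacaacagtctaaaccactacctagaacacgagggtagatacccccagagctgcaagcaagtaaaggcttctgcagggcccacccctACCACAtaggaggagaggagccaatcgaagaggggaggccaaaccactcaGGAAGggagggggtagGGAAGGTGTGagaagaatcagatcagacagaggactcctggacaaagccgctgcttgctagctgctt
Tbx21: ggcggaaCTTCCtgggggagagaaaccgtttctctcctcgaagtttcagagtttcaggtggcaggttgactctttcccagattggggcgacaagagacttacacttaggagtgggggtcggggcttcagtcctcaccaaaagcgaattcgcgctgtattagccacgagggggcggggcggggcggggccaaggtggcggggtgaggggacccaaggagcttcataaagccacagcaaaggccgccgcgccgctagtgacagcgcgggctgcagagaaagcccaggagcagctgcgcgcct
Stat4: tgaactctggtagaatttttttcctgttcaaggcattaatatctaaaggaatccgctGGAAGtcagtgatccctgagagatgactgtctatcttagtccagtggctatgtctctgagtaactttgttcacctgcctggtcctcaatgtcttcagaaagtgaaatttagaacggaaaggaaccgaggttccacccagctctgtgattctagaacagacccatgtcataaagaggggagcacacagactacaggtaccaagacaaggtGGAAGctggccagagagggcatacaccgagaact
The Prf1 window held 1 RUNX and 4 ETS matches. The Nkg7 window held 1 T-box, 1 RUNX, 3 ETS and 1 STAT match, with an ETS match overlapping the T-box match and another overlapping the STAT match. The Tbx21 window held 1 ETS match and the Stat4 window 2. Over all 32851 windows of this length, 19.0% held the T-box letters, 16.8% the RUNX letters, 71.4% the ETS letters and 8.3% the STAT letters. These matches are letters in a window and say nothing of binding.

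Library totals were 2193837 to 7343204 counts in T patches and 2713677 to 6553535 in B patches, and 319481 to 1076765 in T 100 nuclei and 547333 to 720555 in B 100 nuclei. Mitochondrial DNA took 16.1% to 23.1% of the counts in T patches, 18.8% to 33.6% in B patches, 24.3% to 33.6% in T 100 nuclei and 29.4% to 45.8% in B 100 nuclei. Reads fell in 74.2% to 96.4% of all regions in T patches and 75.4% to 98.1% in B patches, the lowest value of each being its library 2, but in only 12.0% to 38.8% in T 100 nuclei and 27.8% to 40.0% in B 100 nuclei. T 100 nuclei libraries 3 and 4 stood apart, with reads in 14.4% and 12.0% of the regions. The captures followed their labels: of 55 tested regions at T cell marker genes 12 passed the test as higher in T patches and 0 as higher in B patches, and of 50 at B cell marker genes 0 and 12 did. T marker regions summed to 1580 to 1850 normalized CPM, which scales counts to a common library total, in T patches and 431 to 590 in B patches, and B marker regions to 382 to 579 CPM in T patches and 1382 to 2078 in B patches. Cd4 was given no region.

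The first question was whether these genes were more accessible in T than in B patches. No region passed edgeR's quasi-likelihood test with Benjamini-Hochberg adjustment over all regions: 0 of 18 had an adjusted p under 0.05, against 2.27% of all 25712 regions, 1.05% higher in T patches and 1.22% higher in B patches. Those shares were 269 and 314 regions, and 362 and 232 when scaled by library size alone, with 0 of the 18 again passing. At an unadjusted p under 0.05, 4 of 18 were higher in T patches, 2 at Prf1, 1 at Stat4 and 1 at Nkg7, against 5.79% of all regions, and 0 were higher in B patches, against 6.91%. DESeq2 passed 3 of the 18, all higher in T patches, against 8.18% of all regions, and 3.82% as higher in T patches. The log2 fold change of T over B patches was above 0 at 15 of 18 regions, against 51.3% of all regions, with a median of 0.96 against 0.03 over all regions. A difference in reads cannot tell more cells with an open region from a region more open in each cell. Levels below are normalized CPM of the region, with means ± SD over 5 libraries. Fold changes are log2 of T over B, and the ± on them is an approximate SE. This SE was worked back from edgeR's F statistic, as |estimate| / √F, and is not a fitted standard error. It breaks down where no library of 100 nuclei had a read, and none is given there.

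**Figure D1:**
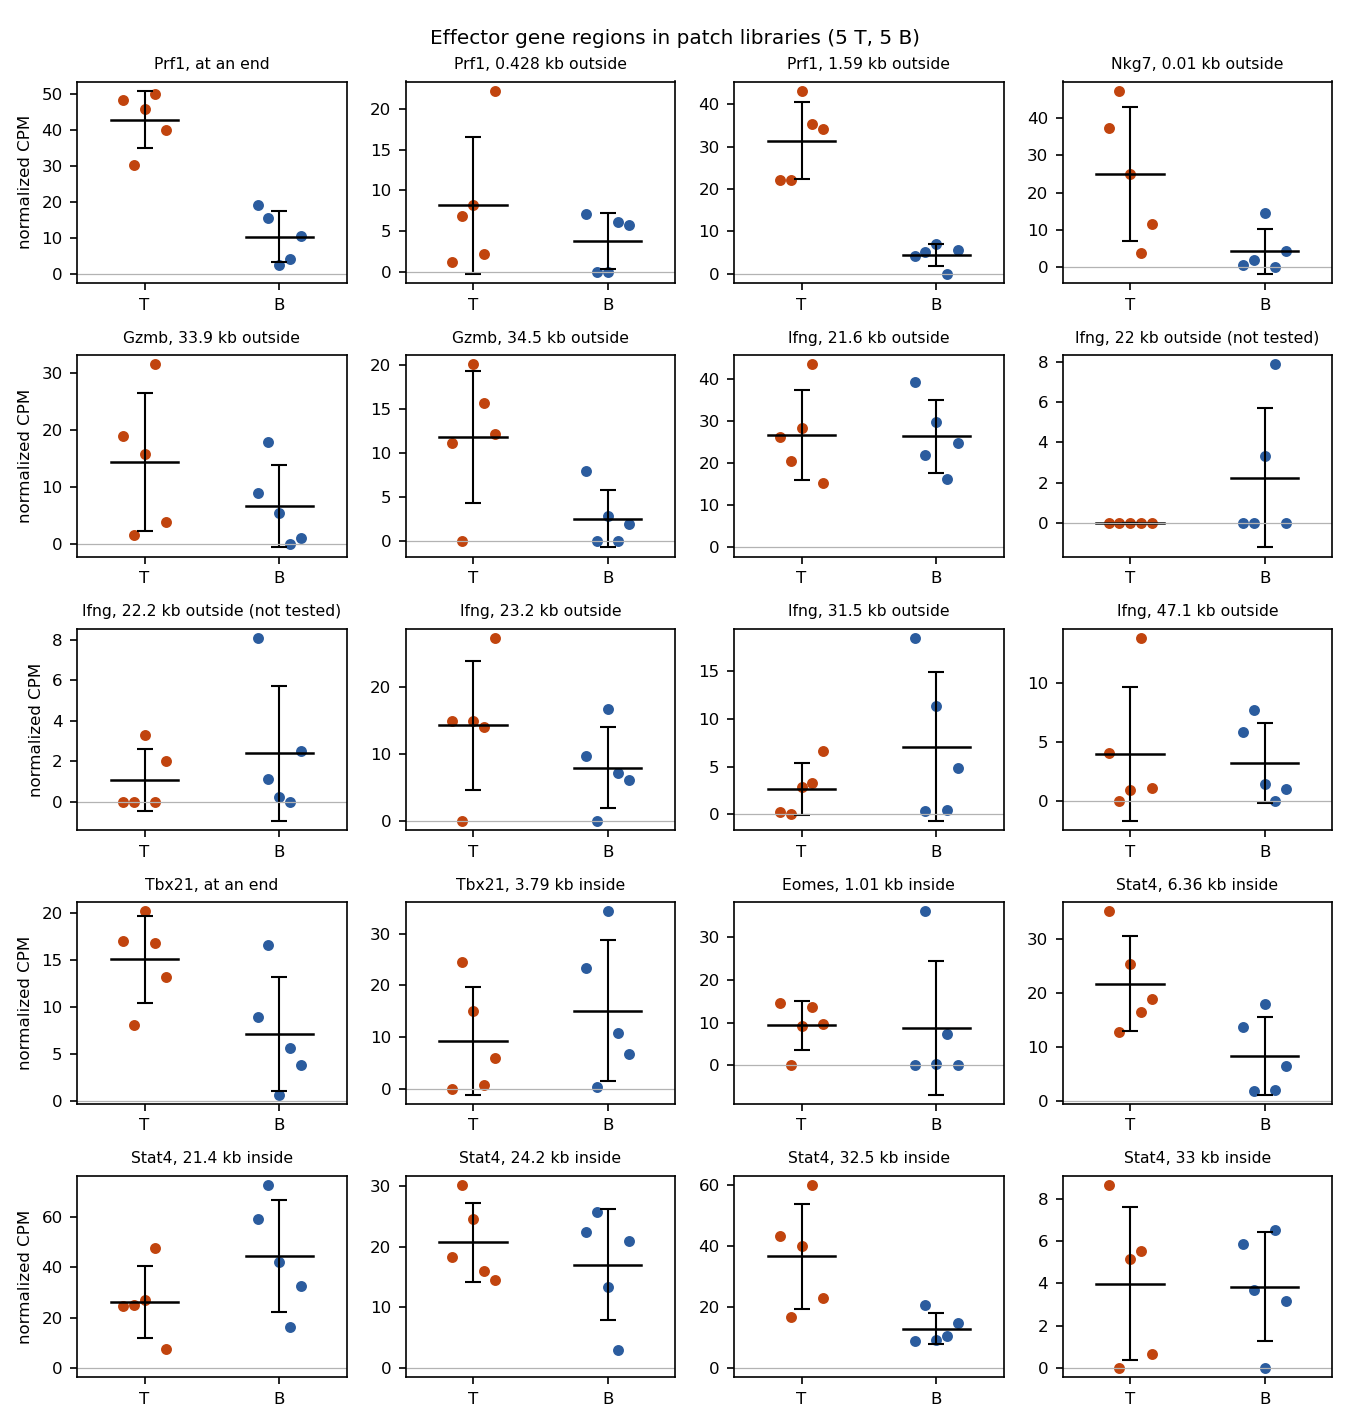
Normalized CPM (y axis, linear and scaled per panel) at each of the 20 regions in T patches (left, 5 points) and B patches (right, 5 points); lines are means and bars ± 1 SD, which can run below 0. The 2 Prf1 regions at 0 and 1.59 kb from the gene are those where every T patch library lies above every B patch library; the B patch library at 36.0 CPM stands apart at Eomes.

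Prf1, at chromosome 10, 61297751 to 61304684, had the clearest difference. The region over its start, at 61297384 to 61297877, had 48.3, 30.1, 45.7, 49.9 and 40.0 CPM in T patches, against 19.1, 15.4, 2.51, 4.06 and 10.5 CPM in B patches. Every T patch library was above every B patch library. The means were 42.8 ± 8.01 and 10.3 ± 7.12 CPM, a log2 fold change of 2.05 ± 0.57 that missed the threshold (edgeR adjusted p = 0.0639).

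The second Prf1 region, 1.59 kb outside the other end of the gene at 61306271 to 61306489, had 22.1, 22.1, 43.2, 35.3 and 34.2 CPM in T patches, against 4.20, 5.14, 7.11, 0 and 5.65 CPM in B patches. Here too the groups did not overlap. The means were 31.4 ± 9.15 and 4.42 ± 2.69 CPM, a log2 fold change of 2.82 ± 0.80 (edgeR adjusted p = 0.0705). T patches lay wholly above B patches at these 2 of 18 regions, against 3.69% of all regions, and B patches wholly above T patches at 0, against 4.33%.

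DESeq2 passed both Prf1 regions, with adjusted p-values of 0.00266 over the start and 0.000834 at 1.59 kb. Without the libraries numbered 2, those with the fewest regions read in each patch group, edgeR passed both as well, at adjusted p = 0.0188 and 0.0309; this pair was left out after the data were seen. Leaving out 1 library at a time, the region over the start passed without T patches 2 (edgeR adjusted p = 0.0417) or B patches 2 (0.0446) and missed without any of the other 8.

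The narrowest Prf1 region, 0.428 kb outside the start at 61297201 to 61297323, had 1.27, 6.83, 8.21, 2.26 and 22.2 CPM in T patches, against 7.05, 0, 0, 6.09 and 5.81 CPM in B patches. The groups overlapped, and the log2 fold change was 1.09 ± 1.39 (edgeR adjusted p = 0.891).

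Nkg7, at chromosome 7, 43437138 to 43438246, had 1 region, ending 0.010 kb from the gene at 43436940 to 43437128. Its levels were 37.4, 47.4, 25, 3.76 and 11.6 CPM in T patches, against 0.450, 1.84, 14.6, 0 and 4.32 CPM in B patches. T patches 4 and 5 fell below B patches 3, so the groups overlapped. The means were 25 ± 17.9 and 4.25 ± 6.05 CPM, with a log2 fold change of 2.54 ± 1.05 (edgeR unadjusted p = 0.0244, adjusted p = 0.27).

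Gzmb, at chromosome 14, 56258836 to 56262334, had no region nearer than 33.9 kb. The region at 33.9 kb, 56296214 to 56296367, had 19.1, 1.61, 15.9, 31.6 and 4 CPM in T patches, against 9.01, 18, 5.44, 0 and 1.16 CPM in B patches, a log2 fold change of 1.11 ± 1.12 (edgeR adjusted p = 0.831). That at 34.5 kb, 56296871 to 56297014, had 11.2, 0, 20.1, 15.8 and 12.2 CPM in T patches, against 7.96, 0, 2.93, 0 and 1.99 CPM in B patches, a log2 fold change of 2.18 ± 1.40 (edgeR adjusted p = 0.616). The groups overlapped at both.

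**Figure D2:**
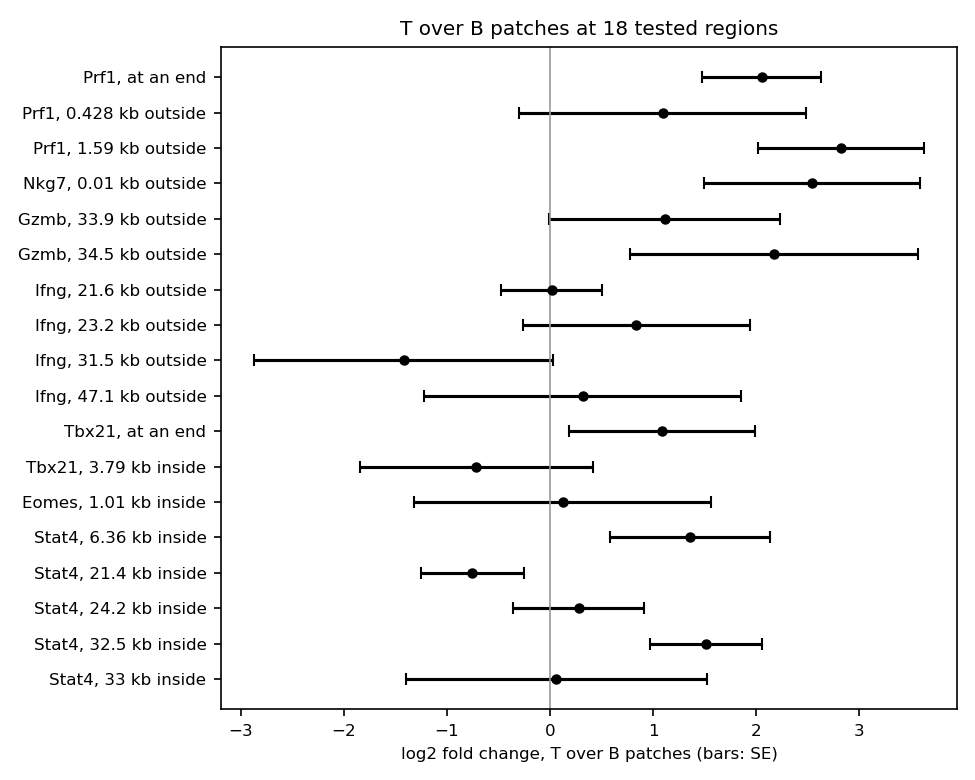
Log2 fold change of T over B patches (x axis) at the 18 tested regions, ordered by gene role. Points are edgeR estimates and bars ± 1 approximate SE, worked back from edgeR's F statistic. Estimates run between -1.42 at an Ifng region and 2.82 at a Prf1 region, with 15 above 0.

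Ifng, at chromosome 10, 118441046 to 118445894, likewise had no region at or near its own promoter: the nearest lay 21.6 kb outside, at 118419000 to 118419456. Its levels were 26.2, 20.5, 28.3, 43.6 and 15.3 CPM in T patches, against 39.3, 22, 29.9, 16.2 and 24.9 CPM in B patches. The groups spanned nearly the same range, with means of 26.8 ± 10.7 and 26.5 ± 8.72 CPM and a log2 fold change of 0.02 ± 0.49 (edgeR adjusted p = 0.997).

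The Ifng regions at 23.2 and 47.1 kb had log2 fold changes of 0.84 ± 1.10 and 0.32 ± 1.54 (edgeR adjusted p = 0.895 and 0.984). At 31.5 kb, 118477394 to 118477555, the levels were 0.254, 0, 2.91, 3.26 and 6.67 CPM in T patches, against 18.5, 0.367, 11.3, 0.451 and 4.82 CPM in B patches. That region had the lowest fold change of the 18, -1.42 ± 1.45 (edgeR adjusted p = 0.834), and its groups overlapped. The 2 regions too low to test lay at 22 and 22.2 kb. The first was at 0 in all 5 T patches and at 2.25 ± 3.47 CPM in B patches, and the second at 1.06 ± 1.53 CPM in T patches and 2.38 ± 3.35 CPM in B patches.

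The region over the start of Tbx21, at chromosome 11, 97115237 to 97115405 in a gene at 97098007 to 97115331, had 17.0, 8.04, 20.1, 16.8 and 13.1 CPM in T patches, against 8.86, 16.5, 0.627, 5.64 and 3.82 CPM in B patches. B patches 2 lay among the T patch values, B patches 1 above T patches 2 alone, and the other B patch libraries below every T patch library. The log2 fold change was 1.09 ± 0.90 (edgeR adjusted p = 0.763). Inside the gene, at 97101795 to 97101945, the levels were 0, 24.5, 15.0, 0.752 and 6.00 CPM in T patches, against 23.4, 0.367, 34.3, 10.8 and 6.64 CPM in B patches. Its log2 fold change was -0.72 ± 1.13 (edgeR adjusted p = 0.924), so the 2 Tbx21 estimates had opposite signs, neither past the test.

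Eomes, at chromosome 9, 118478186 to 118486132, had 1 region 1.01 kb inside the gene, at 118479197 to 118479305. Its levels were 14.5, 0, 9.14, 13.5 and 9.78 CPM in T patches, against 0, 36.0, 0.209, 7.44 and 0 CPM in B patches. The estimate hung on B patches 2: the log2 fold change was 0.12 ± 1.44 with it (edgeR adjusted p = 0.991) and 2.30 without it.

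Stat4, at chromosome 1, 51987106 to 52107189, had 5 regions, all inside the gene, and they differed among themselves. The region 32.5 kb from the nearer end, at 52019654 to 52020067, had 43.5, 16.9, 40.3, 60.1 and 22.9 CPM in T patches, against 8.86, 20.9, 9.20, 10.6 and 14.9 CPM in B patches. Of the T patch libraries 4 were above all B patch libraries. Its means were 36.7 ± 17.3 and 12.9 ± 5.10 CPM and its log2 fold change 1.51 ± 0.54 (edgeR unadjusted p = 0.0104, adjusted p = 0.171). DESeq2 passed it (adjusted p = 0.0274), as did edgeR without both libraries numbered 2 (adjusted p = 0.0191).

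The region 6.36 kb inside, at 52100582 to 52100831, had 35.1, 12.9, 25.3, 16.5 and 18.9 CPM in T patches, against 13.8, 1.84, 18, 2.03 and 6.48 CPM in B patches, a log2 fold change of 1.36 ± 0.78 (edgeR adjusted p = 0.526). The region after the downstream start window, 21.4 kb from the end at 52008464 to 52008765, had 24.7, 24.9, 27.2, 47.6 and 7.56 CPM in T patches, against 59.3, 72.7, 42.0, 16.2 and 32.7 CPM in B patches, a log2 fold change of -0.76 ± 0.50 (edgeR adjusted p = 0.636). The groups overlapped at both, with estimates of opposite sign. The regions at 24.2 and 33.0 kb had log2 fold changes of 0.28 ± 0.64 and 0.06 ± 1.46 (edgeR adjusted p = 0.956 and 0.996).

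Per kb of the regions, the summed level of a gene's regions in T patches was 133 ± 95.4 CPM per kb at Nkg7, 98.9 ± 19.9 at Prf1, 88.8 ± 60.1 at Gzmb, 86.9 ± 53.1 at Eomes, 80.9 ± 24.9 at Stat4, 76.3 ± 27.7 at Tbx21 and 40.8 ± 16.2 at Ifng. In B patches it was 80.8 ± 144 CPM per kb at Eomes, 69.8 ± 33.8 at Tbx21, 64.1 ± 24.6 at Stat4, 41.4 ± 18.5 at Ifng, 31.4 ± 27.2 at Gzmb, 22.6 ± 32.2 at Nkg7 and 22.2 ± 10.5 at Prf1. Neighbours in either order lay closer than the larger of their SDs, except Tbx21 and Ifng in T patches. The B patch order rests at Eomes on B patches 2: without that library Eomes had 17.7 ± 34.1 CPM per kb and stood last, below Prf1 at 21.6 ± 12, Gzmb at 24.1 ± 25 and Nkg7 at 25.8 ± 36.2 (SD, n = 4). This order covers only the regions in the deposited table.

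The 18 tested regions were weak for this data set. Their median of mean CPM was 11.7 against 15.5 over all tested regions, 6 of the 18 reached that overall median, and their median width was 178 bp against 213 bp. Of them 2 spanned a gene end (11.1%, against 26.5% of all tested regions), 7 lay inside a gene (38.9%, against 43.2%) and 9 outside (50.0%, against 30.3%). Both Prf1 regions that separated the groups lay at or within 1.59 kb of the gene.

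The level most like the summed level of the 20 regions over the 10 patch libraries, by Pearson's r over 12046 regions, was that of regions at Fam53b (r = 0.952), Ccr7 (0.936), Ptger4 (0.932), Dse (0.919) and Tnfrsf14 (0.918). These r values describe libraries that share depth and group. They were picked as the highest of 12046, each over 10 libraries, and whether chance alone gives values this high was not tested. Ccr7 encodes a chemokine receptor that guides lymphocytes into T cell zones, and Ptger4 a prostaglandin E2 receptor. Their log2 fold changes of T over B patches were 1.2 ± 0.49 at Ccr7, 0.78 ± 0.39 at Ptger4, 2.04 ± 0.82 at Tnfrsf14, 0.91 ± 0.46 at Dse and 0.66 ± 0.56 at Fam53b, none past the test (edgeR adjusted p between 0.248 and 0.771).

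Another 19 regions lay within 50 kb of an effector gene but nearer to another gene. Beside Nkg7 there were 8, with 3 log2 fold changes above 0, and 1 passed: a region of Siglecg, which encodes an inhibitory receptor of B cells, had 0.536 ± 0.659 CPM in T patches and 23.4 ± 12.2 CPM in B patches, a log2 fold change of -5.27 ± 1.11 (edgeR adjusted p = 0.0146, and 0.0791 without B patches 1). A region of Adamts14 beside Prf1 had a log2 fold change of 2.26 ± 0.95 (edgeR adjusted p = 0.283). The 1 region near Ccl5, nearer to Ccl9, had a log2 fold change of -0.67 ± 1.48 (edgeR adjusted p = 0.953).

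The wider effector pathway was taken as 5 lists, which include the effector genes themselves. Of their 132 tested regions 3 passed in edgeR, or 2.27%, against 2.27% of all regions in either direction. All 3 were higher in T patches, where 1.05% of all regions passed as higher in T patches and 1.22% as higher in B patches. The value given for a gene is that of its region with the smallest p, unless a region is named. Of 53 tested regions at 12 effector transcription factor genes, 2 passed in edgeR as higher in T patches and 0 as higher in B patches. DESeq2 passed 4 as higher in T patches, against 3.82% of all regions, and 3 as higher in B patches. In either direction DESeq2 passed 8.18% of all regions. Of the 53 log2 fold changes 32 were above 0, with a median of 0.16. Both regions that passed in edgeR belonged to Runx3, a RUNX factor of CD8 T cells and other cytotoxic lymphocytes. The Runx3 region 39.9 kb outside the gene had 60.6 ± 17.3 CPM in T patches and 16.3 ± 3.16 CPM in B patches, a log2 fold change of 1.89 ± 0.40 (edgeR adjusted p = 0.0146), and passed whichever library was left out. That 0.008 kb outside had 74.1 ± 17.4 CPM in T patches and 13.7 ± 18.7 CPM in B patches, with 2.46 ± 0.61 (edgeR adjusted p = 0.0362). It missed the threshold without any 1 library except T patches 2 or B patches 2, with an adjusted p of up to 0.1, and its log2 fold change reached 3.76 without 1 library. Bhlhe40 had -2.29 ± 0.68 at 29.2 kb outside the gene and Irf1 -3.65 ± 1.24 at 21.1 kb outside (edgeR adjusted p = 0.0883 and 0.148), while the regions at their gene ends had -0.55 ± 0.38 and -0.08 ± 0.36 (edgeR adjusted p = 0.664 and 0.982).

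None of the 32 tested regions at 12 of 16 cytotoxic granule genes passed in edgeR, and 17 log2 fold changes were above 0, with a median of 0.09. At an unadjusted p under 0.05 in edgeR there were 5, 3 higher in T patches and 2 in B patches, against 12.7% of all regions. DESeq2 passed 3, 2 higher in T patches, both at Prf1, and 1 in B patches, against 8.18% of all regions. Besides Prf1 and Nkg7, Ctsw, which encodes cathepsin W, had 1.98 ± 1.08, while Ctsc, which encodes the cathepsin that activates granzymes, had -3.94 ± 1.36 (edgeR adjusted p = 0.496 and 0.153). The Ctsc region lay 7.4 kb inside the gene, and that at its gene end had -0.74 ± 0.31 (edgeR adjusted p = 0.277). Gzma, Gzmc, Gzmk and Gzmm were given no region. The list summed to 624 to 741 CPM in T patches and 581 to 806 CPM in B patches.

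Of 20 tested regions at 6 of 10 cytokine and chemokine genes 0 passed in edgeR, and 15 log2 fold changes were above 0, with a median of 0.49. In edgeR 3 had an unadjusted p under 0.05, all higher in T patches, against 5.79% of all regions. DESeq2 passed 2, also higher in T patches, against 3.82% of all regions. Fasl, the ligand of the death receptor Fas, had 4.08 ± 1.5 and Xcl1, a chemokine for cross-presenting dendritic cells, 2.54 ± 0.83 (edgeR adjusted p = 0.196 and 0.129). The Fasl region lay 45.8 kb outside the gene, and that at its gene end had 2.08 ± 1.15 (edgeR adjusted p = 0.505). Tnf had 1 ± 0.59 and Ccl3 0.95 ± 0.57 (edgeR adjusted p = 0.561 and 0.568). Ccl4, Ccl5, Csf2 and Il2 were given no region.

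Of 15 tested regions at 9 of 12 receptor genes 0 passed in edgeR. In edgeR 7 had an unadjusted p under 0.05, 6 of them higher in T patches, against 5.79% of all regions. DESeq2 passed 5, all higher in T patches, against 3.82% of all regions. The 15 log2 fold changes had a median of 1.18, with 11 above 0. Ifngr1, a chain of the interferon gamma receptor, had 3.42 ± 1.2 at a weak region 13.7 kb outside the gene but -0.04 ± 0.21 at its gene end (edgeR adjusted p = 0.163 and 0.986), where the level was 234 CPM in T patches and 241 CPM in B patches. Il18r1, a chain of the interleukin-18 receptor, had 3.19 ± 1.07 and Il12rb2, the inducible chain of the interleukin-12 receptor, 2.45 ± 1.04 (edgeR adjusted p = 0.138 and 0.293). The 1 region at an unadjusted p under 0.05 that was higher in B patches was at Il12rb1, with -1.36 ± 0.64 (edgeR unadjusted p = 0.0471, adjusted p = 0.382). Il2rb, the beta chain shared by the interleukin-2 and interleukin-15 receptors, had 1.24 ± 0.37 (edgeR adjusted p = 0.0908). Of 12 tested regions at 6 of 12 genes of other helper T cell programmes 1 passed in edgeR as higher in T patches, against 1.05% of all regions. This region was at Gata3, the factor of type 2 helper cells. It had 81.6 ± 29.5 CPM in T patches and 28.5 ± 6.89 CPM in B patches, a log2 fold change of 1.52 ± 0.35 (edgeR adjusted p = 0.0255). Without T patches 3, B patches 1, B patches 3 or B patches 5 it missed, with adjusted p-values of 0.064 to 0.0855. Ikzf2 had 2.2 ± 1.04, Il21 1.78 ± 0.88 and Bcl6, the factor of follicular helper cells, 0.80 ± 0.53 (edgeR adjusted p = 0.379, 0.413 and 0.641). Of this list 11 log2 fold changes were above 0, with a median of 1.16, and Foxp3, Il4, Il13, Il17a and Il22 were among the genes given no region.

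**Figure D3:**
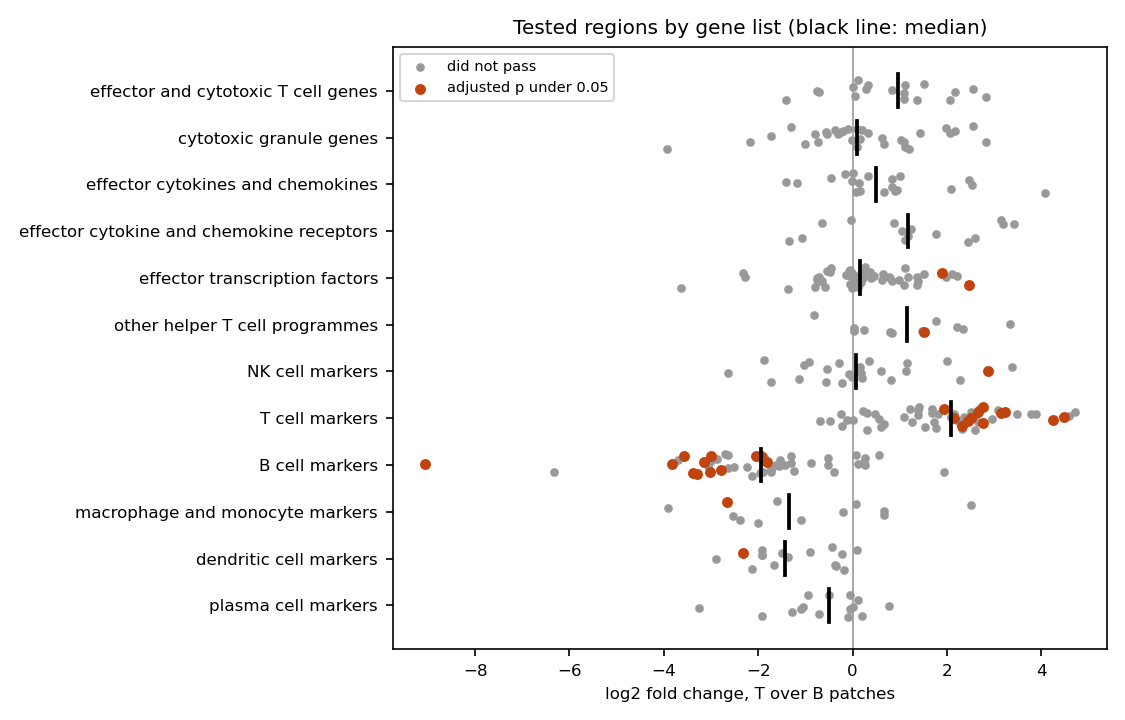
Log2 fold change of T over B patches (x axis) at each tested region of the effector genes, 5 pathway lists and lists of natural killer, T, B, macrophage and monocyte, dendritic and plasma cell markers. Black lines are medians and coloured points passed edgeR's test at an adjusted p under 0.05. The effector genes have a median of 0.96 and no passing region; T cell markers have a median of 2.09 and B cell markers of -1.95.

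Natural killer cells share much of the effector programme. Of 24 tested regions at 9 of 13 natural killer marker genes, 12 log2 fold changes were above 0, with a median of 0.07, and the list summed to 319 to 647 CPM in T patches and 298 to 446 CPM in B patches. The 1 that passed, inside the integrin gene Itga2, had 40.9 ± 17.7 CPM in T patches and 5.51 ± 4.27 CPM in B patches, a log2 fold change of 2.87 ± 0.74 (edgeR adjusted p = 0.0421). It missed without any 1 library except T patches 2 or B patches 2, with adjusted p-values of 0.0508 to 0.148. The other Itga2 regions went both ways. Those 44.6 and 21.2 kb from the nearer end had -2.63 ± 1.17 and -1.88 ± 1.36 (edgeR adjusted p = 0.334 and 0.696). Those at 0.011 and 16 kb had 0.81 ± 0.63 and 0.34 ± 0.48 (edgeR adjusted p = 0.736 and 0.908). Klrk1, which encodes the activating receptor NKG2D of natural killer and CD8 T cells, had 2 ± 0.57 (edgeR adjusted p = 0.0696), and Ncr1, Klra4, Klra8 and Fcer1g were given no region. The part of natural killer cells in the Prf1 and Nkg7 values was not tested.

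The summed level of macrophage, dendritic and plasma cell markers was lower in every T patch library than in every B patch library. Over all regions, 1.22% passed in edgeR as higher in B patches, and 6.91% were higher in B patches at an unadjusted p under 0.05. DESeq2 passed 8.18% of all regions in either direction. Macrophage and monocyte marker regions summed to 75.2 to 134 CPM in T patches and 176 to 273 CPM in B patches, with 4 of 12 log2 fold changes above 0 and 1 passing, at Adgre1 (log2 fold change -2.65 ± 0.70, edgeR adjusted p = 0.0467). The Adgre1 call was lost without any 1 library except T patches 1 or B patches 4, with an adjusted p of up to 0.13. Dendritic cell marker regions summed to 131 to 210 CPM in T patches and 357 to 470 CPM in B patches, with 1 of 16 log2 fold changes above 0 and 1 passing, at Irf8 (log2 fold change -2.33 ± 0.40, edgeR adjusted p = 0.00478), a factor that B cells also express. Plasma cell marker regions summed to 258 to 338 CPM in T patches and 344 to 464 CPM in B patches, with 4 of 15 log2 fold changes above 0 and 0 passing in edgeR. At an unadjusted p under 0.05 in edgeR there were 3, and DESeq2 passed 3, all of them lower in T patches. The same counts were 4 and 3 for the macrophage and monocyte regions, and 4 and 3 for the dendritic cell regions, again all lower in T patches. The single tested erythroid region did not pass, and neutrophil markers were given no region.

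At 100 nuclei the effector regions were mostly unread, and most reads came from T libraries. T 100 nuclei libraries had reads in 9, 8, 3 and 2 of the 20 regions, and B 100 nuclei libraries in 2, 1, 2 and 2. The 3 and 2 belong to T libraries 3 and 4, which had reads in few regions anywhere. Of the 18 tested regions 9 had reads in a T library and in no B library, against 14.3% of all regions, and 2 in a B library and in no T library, against 21.4%. Another 4 had reads in both groups, against 49%, and 3 in none, against 15.3%. A count of 0 allows up to 3 counts, or 2.79 to 9.39 CPM by library total in T 100 nuclei and 4.16 to 5.48 CPM in B 100 nuclei, for counting error only, since reads are copies and not independent molecules.

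**Figure D4:**
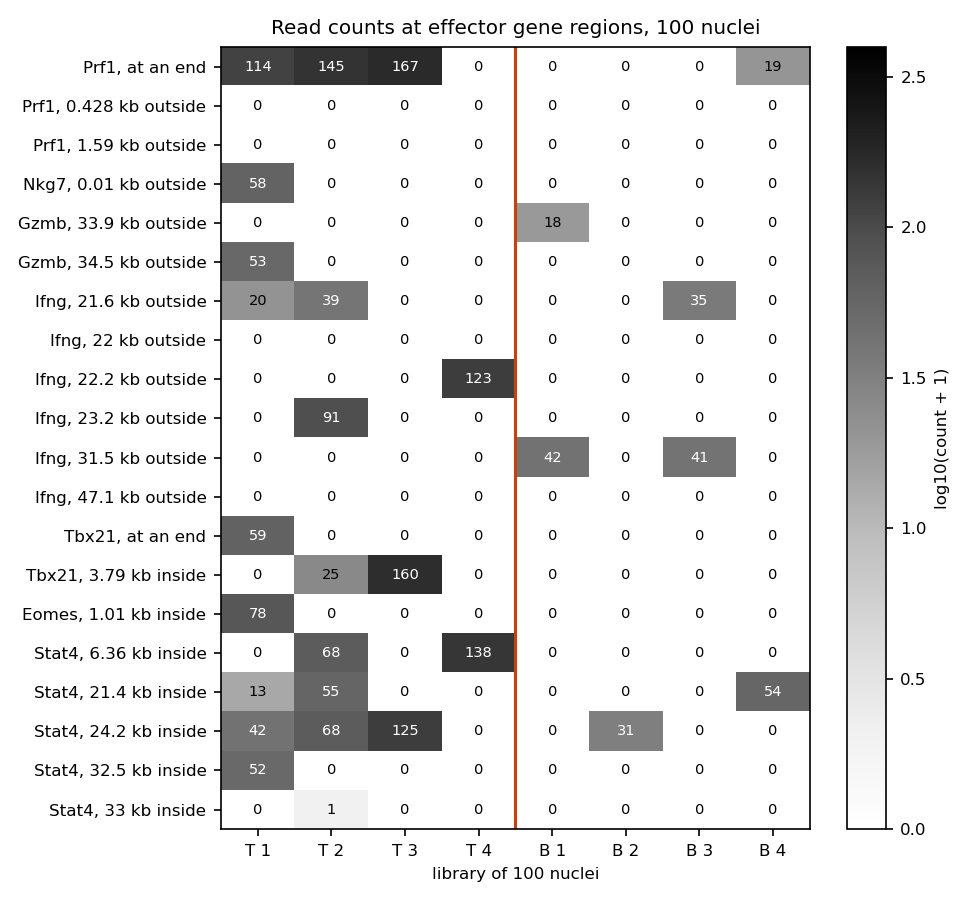
Raw read counts at each of the 20 regions in the 4 T and 4 B libraries of 100 nuclei, with cells shaded by log10 of count plus 1. The start region of Prf1 has reads in 3 T libraries and 1 B library, and most other regions have reads in 1 or 2 libraries.

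The start region of Prf1 had 114, 145, 167 and 0 counts in T 100 nuclei, against 0, 0, 0 and 19 counts in B 100 nuclei. It was read in 3 of 4 T libraries and 1 of 4 B libraries, and its log2 fold change was 3.27 ± 2.46 (edgeR adjusted p = 0.506). The other 2 Prf1 regions had no reads in any of the 8 libraries. The Nkg7 region had 58, 0, 0 and 0 counts in T 100 nuclei, against 0 in each B library, and the Eomes region 78, 0, 0 and 0 against 0 in each. Each of these was read in 1 library only.

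The Tbx21 region inside the gene had 0, 25, 160 and 0 counts in T 100 nuclei, and that over its start 59, 0, 0 and 0, against 0 in every B library at both. At 24.2 kb in Stat4 there were 42, 68, 125 and 0 counts in T 100 nuclei, against 0, 31, 0 and 0 in B 100 nuclei, and the log2 fold change was 2.08 ± 2.89 (edgeR adjusted p = 1). At 6.36 kb in Stat4 there were 0, 68, 0 and 138 counts in T 100 nuclei and 0 in each B library. The region at 21.4 kb had 13, 55, 0 and 0 counts in T 100 nuclei, against 0, 0, 0 and 54 in B 100 nuclei, a log2 fold change of -0.78 ± 3.17 (edgeR adjusted p = 1). The region at 32.5 kb was read only in T 100 nuclei 1, with 52 counts, and that at 33.0 kb only in T 100 nuclei 2, with 1. Stat4 was thus read at several regions in T libraries, with B libraries giving reads at 2 of them.

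The Ifng region at 31.5 kb was read in B libraries only, with 42, 0, 41 and 0 counts in B 100 nuclei and 0 in each T library. That at 21.6 kb had 20, 39, 0 and 0 counts in T 100 nuclei, against 0, 0, 35 and 0 in B 100 nuclei, a log2 fold change of 0.27 ± 3.5 (edgeR adjusted p = 1). The Gzmb region at 33.9 kb was read only in B 100 nuclei 1, with 18 counts, and that at 34.5 kb only in T 100 nuclei 1, with 53. The Ifng region at 23.2 kb was read only in T 100 nuclei 2, with 91 counts, and that at 22.2 kb only in T 100 nuclei 4, with 123. Reads at Ifng and Gzmb thus came from libraries of both groups, mostly at different regions.

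In edgeR's test at 100 nuclei 0 of 18 regions passed, against 0.0156% of all regions, the 4 that passed being mitochondrial and higher in B 100 nuclei. At an unadjusted p under 0.05 in edgeR there were 3, against 5.5% of all regions. Of these, 2 were higher in T 100 nuclei, the Stat4 region at 6.36 kb and the Tbx21 region inside the gene, against 1.45% of all regions. The Ifng region at 31.5 kb was lower in T 100 nuclei, against 4.04%. DESeq2 passed no region at all, with 2151 at an unadjusted p under 0.05. The T and B libraries were wholly apart at 0 of the 18 regions, against 0.124% of all regions with T above B and 1.05% with B above T.

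As a share of nuclear counts, which needs no scaling between libraries, the 20 regions together took 0.0426% ± 0.00771 in T patches and 0.0261% ± 0.00964 in B patches (SD, n = 5 each), and the groups overlapped. They took 0.0893% ± 0.0226 in T 100 nuclei and 0.0162% ± 0.00627 in B 100 nuclei (SD, n = 4 each), and the groups did not overlap. The shares at 100 nuclei rest on summed counts of 489, 492, 452 and 261 in T libraries, against 60, 31, 76 and 73 in B libraries, spread over the few regions read. Without T libraries 3 and 4, the other two T libraries took 0.0707% (95% exact binomial interval 0.0645 to 0.0772) and 0.0688% (0.0628 to 0.0751), and the highest B library took 0.0223% (0.0175 to 0.0281). These intervals cover counting error only, and reads that are copies make them too narrow. In summed CPM at 100 nuclei, T and B libraries overlapped in each of the 5 pathway lists taken above. Cytotoxic granule genes, for example, had 180 to 1161 CPM in T libraries and 237 to 858 CPM in B libraries. T cell markers did not overlap, at 1141 to 2381 CPM in T libraries and 343 to 775 CPM in B libraries.

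**Figure D5:**
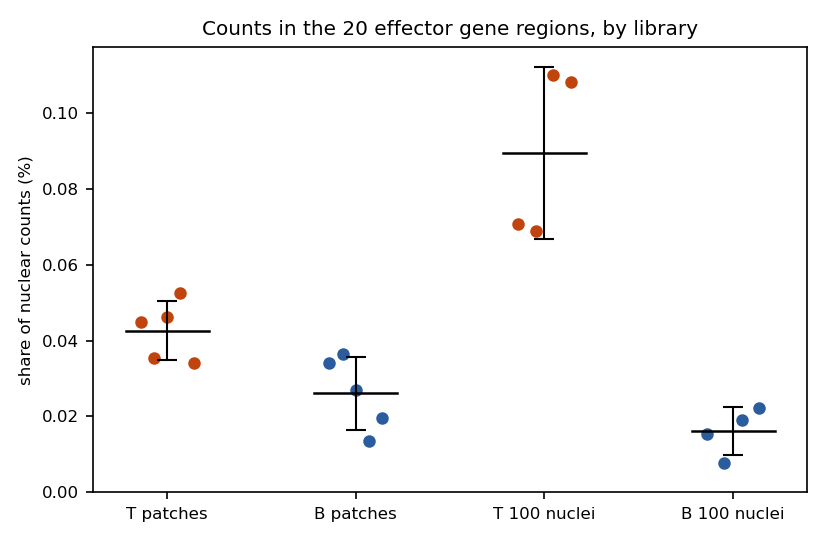
Counts in the 20 regions as a percentage of each library's nuclear counts (y axis, linear) in T and B patches and T and B 100 nuclei; points are libraries, lines means and bars ± 1 SD. T and B overlap in patches, while the 4 T libraries of 100 nuclei lie above the 4 B libraries.

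Whether the T over B difference itself changed with the size of the capture was tested as an interaction, patches minus 100 nuclei. In edgeR 0 of 18 regions passed, as 0% of all regions did, with 7 at an unadjusted p under 0.05 against 27.1% of all regions. Of those 7, 2 had a larger T over B log2 fold change in patches, against 18.2% of all regions, and 5 a larger one at 100 nuclei, against 8.92%. At each of those 7, either all T or all B libraries of 100 nuclei had no reads, so these differences depend on how zeros are handled. The smallest adjusted p was that of the Tbx21 region inside the gene (0.0725, difference -9.93 ± 3.33). DESeq2 passed 4 of the 18, against 12.4% of all regions: the Tbx21 region inside the gene, the Stat4 region at 6.36 kb, the Ifng region at 23.2 kb and the Eomes region. At these 4 no B library of 100 nuclei had a read, so the fitted size of the difference depends on how zeros are handled.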

How the data were processed

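The deposited table holds raw read counts of 27396 regions in 18 libraries of paired-end ATAC-seq. The submitters' processing notes name MACS2 2.2.7.1, Bowtie2 2.4.5, SAMtools 1.14, Picard, Trimmomatic 0.36, deepTools 3.5.2, R 4.1.0 and bcl2fastq 2.20, with build mm10. How the authors called regions, treated duplicates or shifted reads, and the base from which starts count, is not stated in the sources used.

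Each region was given to the protein-coding gene with the nearest end within 50 kb in a RefSeq table of GRCm38.p6 (21896 genes), which placed 23761 regions (86.7%); 795 ties went to the first symbol. Distances run to a gene end, since the table carries no strand. Levels are CPM scaled by TMM factors. T and B libraries were compared within each capture size with edgeR 4.0.16 in R 4.3.3 (quasi-likelihood test, minimum count 10, no covariate, Benjamini-Hochberg over all 25712 tested regions, threshold 0.05), and the interaction was fitted over all 18 libraries. The code was checked on simulated counts. DESeq2 1.42.0, other scalings, filters and windows, a replicate block and each library left out were tried. At 100 nuclei raw counts are given, because CPM there depends on the TMM factors: they set T libraries 3 and 4 at 1009520 and 744068, against totals of 602907 and 319481. No libraries were duplicates. Motifs were matched by letters in RefSeq promoter windows, found for 7 of the 8 genes.

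The genes and the lists were chosen with earlier results of these data known. Outside the 8 genes, regions are named where they passed the test or had the smallest p-values of their list.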

Additional observations from a re-analysis of the deposited data

Results flagged for a closer look

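At Eomes, B patches 2 had 36.0 CPM while the other B patches had 0 to 7.44 CPM; it was flagged because its gap to the nearest library exceeded Dixon's limit of 0.71 of the group's range for 5 libraries. Chance flags about 1 in 20 groups, and 1 value was flagged among the regions of these genes.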

How the results depend on the processing

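The count of all regions that passed in patches, 583, was 2102 by DESeq2, 0 in a joint fit of all 18 libraries 1156 without both libraries numbered 2, and 259 to 673 without 1 library at a time: 347, 272, 334 and 376 without T patches 1, 3, 4 and 5, and 259, 291, 264 and 359 without B patches 1, 3, 4 and 5. Scaling by library size alone turned the split from 269 higher in T and 314 in B to 362 and 232, and the median log2 fold change of all regions from 0.03 to 0.19. Of the 18 effector regions, of which 0 passed edgeR's test, 3 passed by DESeq2, 3 without both libraries numbered 2, 0 to 1 without 1 library, and 1 (Siglecg) when every region within 50 kb was taken. Log2 fold changes above 0, 15 of 18, were 11 to 15 without 1 library, 7 of 8 within 10 kb, and 24 of 37 over every region within 50 kb. At 100 nuclei, where 4 regions passed, 0 did by DESeq2, 0 on nuclear regions alone and 2 to 4 without 1 library (2 without B 100 nuclei 2 or 4), and the joint fit passed 6955, with 10 effector regions. The interaction, 0 in edgeR's test, passed 3199 by DESeq2, 2 with RLE factors, 4 at a minimum count of 20 and 0 to 419 without 1 library: 419, 97, 7 and 10 without T 100 nuclei 1 to 4, and 11 and 10 without B 100 nuclei 2 and 3. The causes were not tested.

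With a replicate block 215 regions passed in patches and 0 at 100 nuclei, and 12 effector regions were above 0 in patches. Same-numbered libraries correlated at -0.00717 to 0.0332 in patches and -0.0138 to 0.0186 at 100 nuclei. The highest value was that of the patch libraries numbered 2, each the other's best match, while most other best matches crossed numbers. Correlations this low cannot exclude that same-numbered libraries shared a section or a mouse.

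Signs turned in patches at Eomes (-0.0283 by DESeq2, -0.0125 with RLE factors, -0.20 to 2.30 without 1 library), Ifng at 21.6 kb (-0.0150 on nuclear regions, -0.0257 with the block, -0.23 to 0.20 without 1 library) and at 47.1 kb (-0.29 with the block, -1.04 to 0.92 without 1 library), and Stat4 at 33.0 kb (-0.44 with the block, -0.42 to 0.40 without 1 library). At 100 nuclei they turned at Ifng at 21.6 kb (-0.00528 by DESeq2, -0.00572 with RLE factors, -0.87 to 6.61 without 1 library) and Stat4 at 21.4 kb, at -0.78 in edgeR's test (3.38 with the block, 0.21 without T libraries 3 and 4, -2.65 to 6.87 without 1 library). Depth limits the 100 nuclei values, where most of these regions had no reads.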
